A study of Mus musculus with 15 samples.

Results

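Rpl3 and Rpl3l encode alternative forms of the same protein of the large (60S) ribosomal subunit. They were followed in mouse ventricle after induction of the RNA-binding protein Celf1. They are 2 of the 16042 genes in the expression table (Entrez gene numbers 27367 and 66211), and both passed the filter on low values that 10868 genes passed. The pair was chosen from measured values of these same mice, namely the levels of both genes and their ratio, so those levels are described here with no test.

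Rpl3 sits near the peptidyl transferase centre of the ribosome, where peptide bonds form, and is made in nearly every tissue. Rpl3l is its paralog of striated muscle, and in adult heart and skeletal muscle much of the large subunit carries it in place of Rpl3. In mouse heart, loss of Rpl3l is known to be accompanied by more Rpl3, and variants of human RPL3L have been linked to heart muscle disease.

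All 15 mice carried MHCrtTA, the doxycycline-dependent activator rtTA driven in heart by the promoter of alpha-myosin heavy chain. They ate food with 2 g/kg doxycycline at 20 to 22 weeks of age. For all 15 mice a removal of food of 2 to 3 hours is also recorded. The 12 MHCrtTA/TRECUGBP1 mice also carried a tetracycline-inducible, Flag-tagged human Celf1 (LYLQ isoform) and were taken after 12, 24 or 72 hours or 7 days, with 3 mice at each time. The 3 control mice had the activator but no inducible Celf1 and were taken after 72 hours, so they match only the 72 hour group in time on doxycycline. Polyadenylated RNA came from ventricle without the atria and a small piece of the apex, and each replicate is a separately numbered mouse.

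The table gives RPKM, a read density scaled both to the length of the gene model and to the mapped reads of the library. Depth, estimated from the steps between low values, was 13.7 to 50.6 M reads per column. Celf1 itself averaged 34.4 RPKM in control, and from 12 hours to 7 days its means were 305, 378, 173 and 32.8 RPKM. Of these only the 7 day group overlapped control. Every column name holds a code that no source used here explains. The controls have 1 code, shared with the 72 hour mouse A3278, and no other time uses a code of the 24 hour mice. Among the 9 cardiomyocyte markers, none was at 0 in any group and their summed level in control was 45918 to 47588 RPKM, so the ventricle label was matched by muscle transcripts. At 7 days that sum was 11470 to 12866 RPKM. Over all genes tested with limma (Benjamini-Hochberg adjusted p under 0.05), 0.524% were called higher and 12.7% lower after 12 hours. The shares higher and lower were 5.38% and 10.6% after 24 hours, 6.39% and 5.22% after 72 hours, and 26.7% and 28.2% after 7 days. With each library scaled by the median of its gene ratios the calls were 72 higher and 157 lower after 12 hours and 908 higher and 753 lower after 24 hours. The median difference of all genes from control as deposited was -0.30 and -0.19 on the log2 scale at those times.

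On mm9 Rpl3 lies at chr15:79908211-79913836 on the minus strand, with 10 annotated exons and the small nucleolar RNA gene Snord83b inside it but overlapping none of its exons. Rpl3l lies at chr17:24864774-24873094 on the plus strand, with 11 annotated exons. The transcripts compared are 1361 bases (Rpl3) and 1372 bases (Rpl3l) long and encode 403 and 407 residues. Aligned codon by codon over 402 codons, the proteins share 77.1% of residues and the coding sequences 73.6% of bases. The most alike stretch of 60 coding bases, bases 520 to 579 of each coding sequence counted from the start codon, is shown because it is where a read could most easily be given to the wrong paralog. It runs 5′ to 3′, and capitals mark the 8 bases that differ.
Rpl3: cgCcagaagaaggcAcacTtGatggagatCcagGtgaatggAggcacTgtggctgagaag
Rpl3l: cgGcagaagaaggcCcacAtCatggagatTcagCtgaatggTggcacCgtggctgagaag
The longest run of bases the transcripts share is 22, so no longer stretch of them is identical. Copies elsewhere are a different matter. The mm9 genome holds 28 other places that match at least 80% of the Rpl3 transcript, at 85.0% to 99.9% identity, and 26 of them have no introns. How reads that fit several places were counted is not given in the sources used here, so the Rpl3 level is uncertain to that extent. Rpl3l has 10 such places and none above 76.0% identity.

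In control ventricle Rpl3l was the more abundant form in each mouse. Rpl3l stood at 175, 194 and 170 RPKM in mice A3250, A3259 and A3280, and Rpl3 at 108, 130 and 110 RPKM. Both scales are per length, and Rpl3l made up 61.9%, 59.8% and 60.8% of the summed level of the pair. The ratio of Rpl3l to Rpl3 was 1.62, 1.49 and 1.55, with a mean of 1.55 ± 0.07 (SD, n = 3).

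After 12 hours of Celf1 induction the forms were nearly level. Rpl3l stood at 140, 144 and 108 RPKM in mice A3252, A3258 and A3276, all below the lowest control. Rpl3 stood at 138, 114 and 99.5 RPKM in the same mice and overlapped control. The ratios were 1.02, 1.26 and 1.08, below each of the control ratios.

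After 24 hours the picture was much the same, with the ratio overlapping that at 12 hours. Rpl3l stood at 152, 176 and 138 RPKM in mice A3254, A3262 and A3277, with the second inside the control range. Rpl3 stood at 126, 159 and 155 RPKM, and the first of these lay within the control range. The ratios of 1.21, 1.10 and 0.888 were again below every control ratio, and in A3277 Rpl3 was the more abundant form.

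At 72 hours, the time that the controls match, Rpl3 was the more abundant form in all 3 mice. Rpl3l stood at 88.1, 127 and 96.5 RPKM in mice A3264, A3278 and A3281, below every control. Rpl3 stood at 116, 186 and 123 RPKM and overlapped control. The ratios of 0.761, 0.685 and 0.783 overlapped those of no other group, and their mean was 0.743 ± 0.051 (SD, n = 3). On the log2(RPKM + 1) scale the mean difference from control was -1.06 for the ratio, -0.80 (standard error 0.21) for Rpl3l and 0.26 (standard error 0.20) for Rpl3. Against A3278 alone, which has the code of the controls, these were -1.17, -0.49 and 0.68.

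At 7 days Rpl3l was a small part of the pair. It stood at 5.63, 10.1 and 8.97 RPKM in mice A3269, A3283 and A3345, and Rpl3 stood at 312, 341 and 410 RPKM. Neither range overlapped that of any other group. The mean of Rpl3l was 21.9-fold lower than in control and that of Rpl3 3.05-fold higher. The ratios were 0.0181, 0.0296 and 0.0219, so Rpl3 was 33.8 to 55.4 times as abundant as Rpl3l, and Rpl3l made up 1.77% to 2.88% of the pair. On the log2(RPKM + 1) scale the differences from control were -4.32 (standard error 0.21) for Rpl3l and 1.60 (standard error 0.20) for Rpl3, and -5.92 for the ratio. With the column code in the fit they were -3.85, 2.23 and -6.08. That fit links control to the other times through A3278 alone, whose Rpl3 and Rpl3l levels were the highest of the 72 hour mice.

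**Figure D1:**
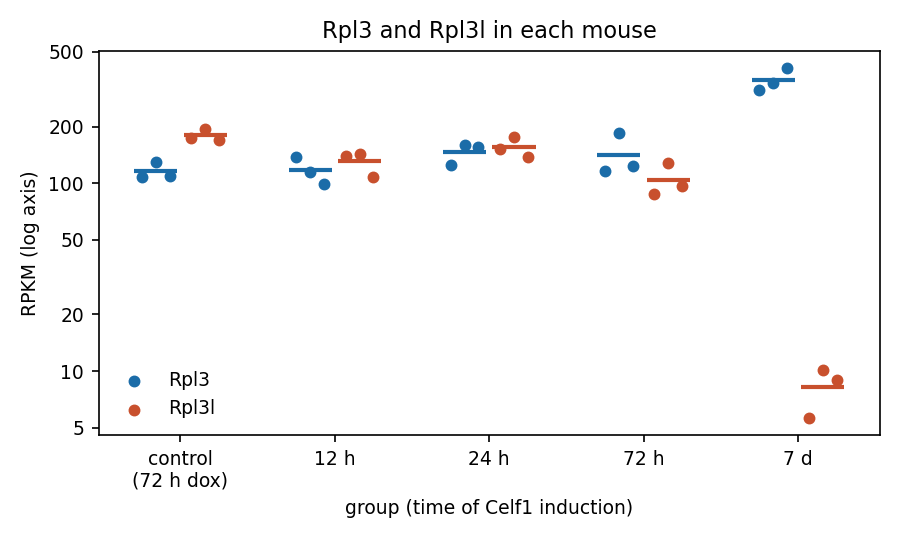
RPKM of Rpl3 (blue) and Rpl3l (orange) on a log axis for each mouse, by group, with horizontal lines at the group means. Rpl3l lies above Rpl3 in the 3 controls (170 to 194 against 108 to 130 RPKM) and far below it at 7 days (5.63 to 10.1 against 312 to 410 RPKM).

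The groups fell in the order control, 12 hours, 24 hours, 72 hours and 7 days by mean ratio. The neighbours 12 and 24 hours overlapped, and the other neighbouring groups did not. By mean Rpl3l level the order was control, 24 hours, 12 hours, 72 hours and 7 days, and only 7 days stood apart from its neighbour. By mean Rpl3 level the order from the top was 7 days, 24 hours, 72 hours, 12 hours and control, and again only 7 days stood apart.

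The summed level of the pair varied far less than its makeup. It was 280 to 325 RPKM in control. From 12 hours to 7 days it was 207 to 278, 278 to 335, 204 to 313 and 318 to 419 RPKM. The sum at 72 hours overlapped control while the share of Rpl3l was 40.7% to 43.9% there. At 7 days A3269 lay within the control range of the sum and the other mice above it.

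The ratio is set within a library, so the scale of the library cancels, and it was compared among columns that carry the same code. Within the code of the controls, the 72 hour mouse A3278 had a ratio of 0.685 against 1.49 to 1.62. Within another code a 12 hour column had 1.08, a 72 hour column 0.748 and the 7 day columns 0.0181 and 0.0284. The other codes shared between times gave 1.26 at 12 hours against 0.0260 at 7 days, 0.774 and 0.806 at 72 hours against 0.0308 at 7 days, and 0.759 at 72 hours against 0.0172 at 7 days. In all 5 of these codes the columns of the later induction time, or of the induced mouse beside controls, had the lower ratio. With the 24 hour group, whose codes occur nowhere else, code and time cannot be told apart, and no 12 hour or 7 day column shares a code with control.

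Several mice were measured in 2 columns, which shows how far the ratio moves without a change of animal. The 24 hour mouse A3262 had ratios of 1.24 and 0.980, so its columns differ by more than the means at 12 and 24 hours do. The 72 hour mice had 0.774 and 0.748 (A3264) and 0.806 and 0.759 (A3281). At 7 days A3283 had 0.0308 and 0.0284 and A3345 had 0.0260 and 0.0172. At 5.63 to 11.3 RPKM the Rpl3l value of a 7 day column rests on an estimated 225 to 458 reads, a counting error of 4.67% to 6.67%. Thus the spread between the columns of A3345 (11.3 and 6.60 RPKM of Rpl3l) was larger than counting error.

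**Figure D2:**
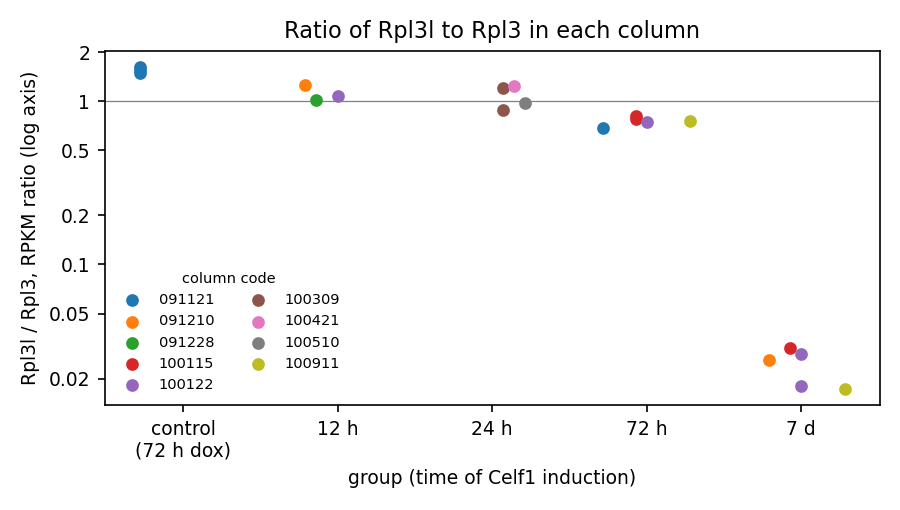
Ratio of Rpl3l to Rpl3 in RPKM on a log axis for each of the 20 columns, by group, coloured by the code in the column name, with a grey line at equal levels. Where groups share a code, their columns fall in the order of the groups. The ratio is 1.49 to 1.62 in control and 0.0172 to 0.0308 at 7 days, and no code holds both of these groups.

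Unlike the ratio, the level of each gene depended on the library scale at the early times. At 12 hours the log2 difference of Rpl3l from control was -0.47 as deposited, -0.11 with median scaling and 0.0037 after a correction for transcript GC content. At 24 hours it was -0.22, -0.0071 and 0.18. For Rpl3 it was 0.0065, 0.36 and 0.36 at 12 hours and 0.33, 0.54 and 0.60 at 24 hours. The log2 ratio lay below control under each of these settings, at -0.48 to -0.36 at 12 hours and -0.55 to -0.42 at 24 hours.

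At 7 days Rpl3l stood at the far end of the whole table. Of the 10868 genes tested, 2 had a lower log2 difference from control, the transmembrane protein gene Lrtm1 at -4.89 and the ankyrin repeat gene Asb14 at -4.48. Tcap, which encodes the Z-disc protein telethonin, came next after Rpl3l at -4.28. At 72 hours 289 genes lay below Rpl3l, and at 24 hours 5142 did. Rpl3 at 7 days had 615 genes above it, none of which was among the 77 other cytosolic ribosomal protein genes of the list used below. The paralog Rpl39l, which was listed apart from them, lay above Rpl3 at 1.86.

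Rpl3l was also lower relative to cardiomyocyte markers. At 7 days it was at 4.58% of its control mean (3.13% to 5.61% in single mice). Of the 9 cardiomyocyte markers 8 were called lower at 7 days by limma, against 28.2% of all genes, with a median log2 difference of -2.23 over the 9. Myh6, the alpha-myosin heavy chain, was at 12.0% of its control mean, the light chains Myl2 and Myl3 at 14.3% and 14.2%, and troponin I (Tnni3) at 14.7%. Troponin T (Tnnt2) was at 49.1% and cardiac actin (Actc1) at 55.4%, while the calcium release channel Ryr2 stood at 129% and was not called. Each marker's mean kept more of its control level than Rpl3l did. In bulk tissue, fewer cells of a type and less RNA per cell cannot be told apart.

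Per 1000 RPKM of summed cardiomyocyte markers, Rpl3l stood at 3.71 to 4.08 RPKM in control. The value was 3.29 to 3.49 after 12 hours, 3.61 to 5.39 after 24 hours, 3.06 to 3.42 after 72 hours and 0.491 to 0.785 after 7 days. On a log2 scale with nothing added to the RPKM, the difference from control relative to the marker sum was -0.25 at 72 hours and -2.55 at 7 days. Per mapped read it was -0.81 and -4.49 on that scale, and -0.80 and -4.32 on the log2(RPKM + 1) scale. The ranges per 1000 RPKM of markers did not overlap control at 12 hours, 72 hours or 7 days and overlapped it at 24 hours.

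**Figure D3:**
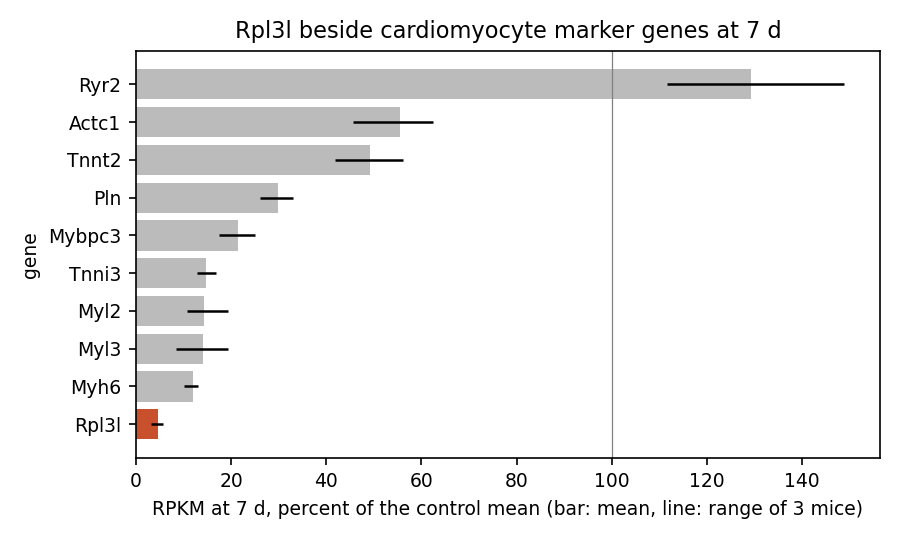
Mean RPKM at 7 days as a percent of the control mean for Rpl3l (orange) and 9 cardiomyocyte markers (grey), with black lines from the lowest to the highest of 3 mice and a grey line at 100%. Rpl3l, at 4.58%, is the shortest bar, below Myh6 at 12.0%.

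Markers of other cells were higher at 7 days, when Rpl3 was. Over all genes 26.7% were called higher and 28.2% lower at 7 days. All 6 macrophage markers and 6 of 7 fibroblast markers were called higher at that time. The summed macrophage markers stood at 68.1 to 83.0 RPKM in control and 820 to 1107 RPKM at 7 days, and the fibroblast markers at 509 to 591 and 1978 to 2653 RPKM. The 4 proliferation markers tested and the 2 neutrophil markers tested were called higher as well, and 4 of 6 endothelial markers were called lower. The sum of 6 atrial markers was 135 to 152 RPKM in control and 623 to 1287 RPKM at 7 days, that of 8 skeletal muscle markers 167 to 179 and 19.0 to 38.5 RPKM, and 1 atrial marker was called higher and 2 lower. The atrial sum was higher through Nppa, the atrial natriuretic peptide, which averaged 41.9 RPKM in control and 940 RPKM at 7 days, and the other 4 atrial markers tested had log2 differences of -2.52 to -0.54. No marker in any of these lists was at 0 in all mice of a group. Their part in the Rpl3 and Rpl3l levels was not tested. At 72 hours, when the ratio of Rpl3l to Rpl3 was 0.685 to 0.783, muscle markers were lower than in control as well. The cardiomyocyte sum was 28229 to 38650 RPKM, below each control, with a list median of -0.56, and Actc1 (-0.77 ± 0.22) and Pln (-1.02 ± 0.23) were called lower. The atrial light chains Myl7 (-1.62 ± 0.48) and Myl4 (-1.26 ± 0.38) were called lower too, but their values overlapped control. The atrial sum was 50.7 to 169 RPKM and overlapped control. The macrophage sum was 76.8 to 98.2 RPKM and the fibroblast sum 488 to 655 RPKM, both overlapping control, and limma called 0 of either list, with 0 at an unadjusted p under 0.05. Over all genes 6.39% were called higher and 5.22% lower at 72 hours.

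The other proteins of the ribosome were compared from a list of 79 genes, of which 77 were in the table and tested. At 7 days 19 were called higher and 1 lower, against 26.7% and 28.2% of all genes, with a list median of 0.38 and a median of -0.03 over all genes. The count was 13 without control A3259 or without control A3280, 31 with median scaling and 50 with the column code in the fit. That last fit links control to the other times through A3278 alone. Its median 60S level was 460 RPKM, against 293 RPKM in A3264 and 264 RPKM in A3281. The called genes of the 60S subunit were 8 of 45 higher and 1 lower, and those of the 40S subunit 11 of 32 higher. Examples are Rpl39 at 1.46 ± 0.29 (standard error, adjusted p = 0.00049), which lies in the exit tunnel, Rpl30 at 1.07 ± 0.21 (adjusted p = 0.00050), Rps27a at 1.40 ± 0.17 (adjusted p = 2.41e-06), made as a fusion with ubiquitin, and Rps12 at 1.33 ± 0.24 (adjusted p = 0.00017). Rpl39 was not called with the column code in the fit. Many ribosomal protein genes have processed copies, as Rpl3 does, and the same limit on counting applies to them.

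Rpl3, at 1.60, lay above all 77 of these genes at 7 days. Its level relative to the median of the others was 0.354 to 0.441 in control, 0.370 to 0.482 after 12 hours, 0.388 to 0.493 after 72 hours and 0.854 to 0.960 after 7 days. After 24 hours it was 0.436 to 0.864, with the highest value in A3262, the mouse whose median 60S level was lowest (184 RPKM against 270 and 285). On the log2 scale Rpl3 relative to the other ribosomal protein genes differed from control by 1.22 at 7 days.

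At the earlier times few of the 77 ribosomal protein genes were called. Over all genes, 0.524% were called higher and 12.7% lower at 12 hours. Those shares were 5.38% and 10.6% at 24 hours and 6.39% and 5.22% at 72 hours. At 12 hours 1 was higher (Rps27, 0.83 ± 0.22, adjusted p = 0.026), and its call was lost in 6 of 12 alternatives, namely the column code and leaving out A3258, A3276 or any 1 control. At 24 hours 1 was higher (Rpl22) and 5 were lower, among them Rpl41 at -1.86 ± 0.36 (adjusted p = 0.0080), Rpl15 at -0.90 and Rpl32 at -0.80. None was called at 24 hours without A3262 or without control A3280, and 17 were called without A3254, so single libraries decide these calls. At 72 hours limma called 0 of 77, and 2 had an unadjusted p under 0.05, both higher. The ratio of Rpl3l to Rpl3 was below control at 72 hours, then, with the list median at 0.04 and no other ribosomal protein gene called.

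**Figure D4:**
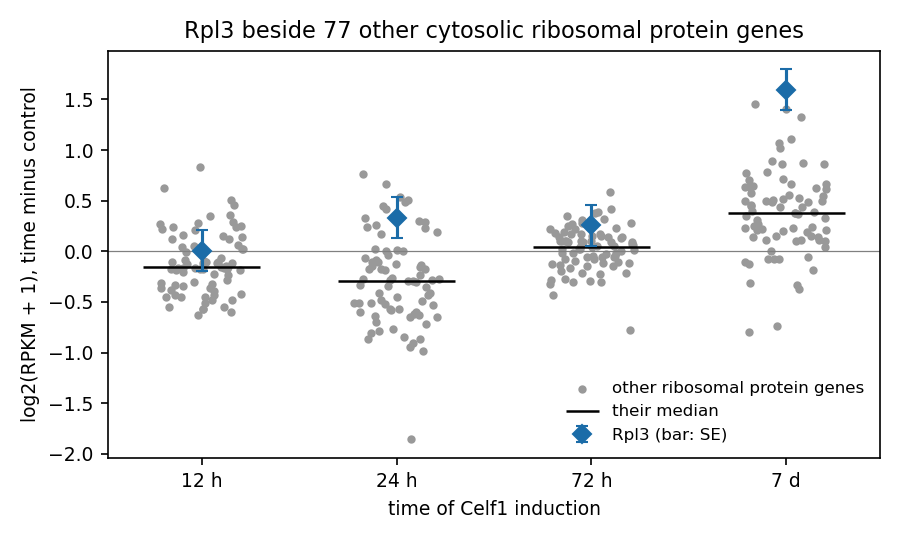
Difference from control in log2(RPKM + 1) at each time for 77 cytosolic ribosomal protein genes (grey points), their median (black line) and Rpl3 (blue diamond, bar of 1 standard error). Rpl3 lies within the spread of these 77 genes to 72 hours and above all of them at 7 days, at 1.60 against a median of 0.38.

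Ribosomal proteins have other paralogs, of which 5 were tested. Over all genes 26.7% were called higher and 28.2% lower at 7 days. At 7 days Rpl39l was called higher at 1.86 ± 0.34 (adjusted p = 0.00020), from 0.740 to 1.38 RPKM in control to 3.82 to 13.7 RPKM. Rpl22l1 was called higher at 1.09 ± 0.33 (adjusted p = 0.010) and Rpl36al at 0.61 ± 0.22 (adjusted p = 0.030), while Rpl7l1, whose product takes part in building the subunit, was called lower at -0.66 ± 0.26 (adjusted p = 0.038). Of these the Rpl39l call held in each alternative that gave it a value, and the other calls were lost in 2 or more. None of the 5 was called by limma at 12, 24 or 72 hours, when 1, 2 and 1 had an unadjusted p under 0.05. The shares of all genes called higher and lower at those times were 0.524% and 12.7%, 5.38% and 10.6%, and 6.39% and 5.22%.

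Genes that assemble the large subunit and produce ribosomes were tested as a list of 43. At 72 hours 8 were called higher and 0 lower, against 6.39% and 5.22% of all genes. They included Tsr1 at 1.50 ± 0.18 (adjusted p = 5.87e-05), Gnl3 at 1.40 ± 0.20 (adjusted p = 0.00027) and Ddx21 at 1.07 ± 0.20 (adjusted p = 0.0030), which kept their calls in the 12 alternatives run. Tsr1 acts in maturation of the 40S subunit, Gnl3 encodes the nucleolar GTPase nucleostemin and Ddx21 a nucleolar RNA helicase. Nop58, a protein of the small nucleolar particles that modify ribosomal RNA, was called higher at each time, at 0.76 ± 0.24, 1.06 ± 0.24, 1.45 ± 0.24 and 1.91 ± 0.24 from 12 hours to 7 days (adjusted p = 0.048, 0.014, 0.0012 and 5.01e-06). Its RPKM was 5.06, 4.60 and 3.69 in control and 15.6, 29.1 and 16.0 at 7 days. The Nop58 call at 12 hours was lost in 9 of 12 alternatives, among them the column code and leaving out any 1 mouse of either group. At 24 hours it was lost in 3 of 11, and at 72 hours only with the column code in the fit. At 7 days it held in all 12.

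At 7 days 14 of the 43 were called higher and 5 lower, with a list median of 0.15, beside 26.7% higher and 28.2% lower over all genes. Gnl3 stood at 1.70 ± 0.20 and Npm1, which encodes nucleophosmin, at 1.51 ± 0.25, not called with the column code in the fit. The lower members included the RNA polymerase I subunits Polr1a at -0.65 ± 0.17 and Polr1b at -0.60 ± 0.18, named here after their values were seen. With the column code in the fit 10 were called. At 24 hours 7 were higher and 1 lower (5.38% and 10.6% over all genes), among them Ncl (nucleolin) at 0.97 ± 0.21 and the 60S export adaptor Nmd3 at 1.03 ± 0.26, and at 12 hours, with 0.524% and 12.7% over all genes, 1 was higher and 2 lower (Rrs1 at -0.86 and Rpf1 at -0.83). These early calls fell to 0 at 24 hours without A3262 or control A3280, and to 0 at 12 hours without A3276, control A3259 or control A3280.

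The elongation factor eEF1A also has a general form, Eef1a1, and a muscle and neuron form, Eef1a2. In control Eef1a2 was 1.79 to 2.15 times Eef1a1. At 7 days the ratio was 0.198 to 0.237. Eef1a1 was called higher at 1.41 ± 0.17 (adjusted p = 3.69e-06), from 571 to 600 RPKM in control to 1415 to 1741 RPKM. Eef1a2 was called lower at -1.79 ± 0.18 (adjusted p = 4.53e-07), from 1074 to 1267 RPKM to 308 to 366 RPKM. At 72 hours the ratio, 1.95 to 2.13, lay within the control range, unlike that of Rpl3l to Rpl3. Of the 8 elongation genes 2 were called higher and 2 lower at 7 days, shares near the 26.7% and 28.2% of all genes. The others were Eef1b2 at 0.49 ± 0.17, not called without A3345, without control A3280 or with the GC correction, and Eef1d at -0.91 ± 0.24, not called with the column code in the fit.

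The change of the Rpl3l to Rpl3 ratio was set beside 11 other pairs of a muscle and a general form. At 7 days the ratio of muscle to general form lay below control without overlap in 9 of the 11 pairs, and the median change was -1.92 on the log2 scale. The pair of Rpl3l and Rpl3 had the change furthest from 0, at -5.92. Of the 11, Eef1a2 and Eef1a1 came next at -3.21, then the cytochrome oxidase subunits Cox6a2 and Cox6a1 at -2.87. The pairs whose ranges overlapped control were the filamins Flnc and Flna at 0.04, where both genes were called higher, and the phosphofructokinases Pfkm and Pfkl at -0.46, where both were called lower.

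Most pairs moved at 7 days through the muscle form. Of the 11 muscle forms 10 were called lower, and of the general forms 3 were called higher (Eef1a1, Pgam1 at 0.64 ± 0.22 and Flna at 1.03 ± 0.18) and 6 lower. Over all genes 28.2% were called lower and 26.7% higher, and the general forms called higher are near that share. Ckm, the muscle creatine kinase, stood at -2.89 ± 0.26 and Pygm, the muscle glycogen phosphorylase, at -2.66 ± 0.18. Ckb stood at -0.69 ± 0.28, but its call was lost in 7 of 12 alternatives, among them leaving out any 1 control, and its sign turned, to 0.17, with the column code in the fit. Only Eef1a2 with Eef1a1 and Pgam2 with Pgam1 had the muscle form called lower and the general form called higher among the 11, and Pgam1 was not called without control A3250. The summed cardiomyocyte markers, given above, were also lower at 7 days, and their part in the change of these pairs was not tested.

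At 72 hours the order was different. The difference of the log2 ratio from control was -1.06 for Rpl3l to Rpl3, and those of the 11 other pairs lay between -0.44 (Pgam2 and Pgam1) and 0.48 (Cox7a1 and Cox7a2), with a median of 0.05. The ratio lay below control without overlap in 2 of them and above it in 3. At 24 hours the Cox6a2 to Cox6a1 ratio, at -1.30, was further below control than that of Rpl3l to Rpl3, at -0.55.

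**Figure D5:**
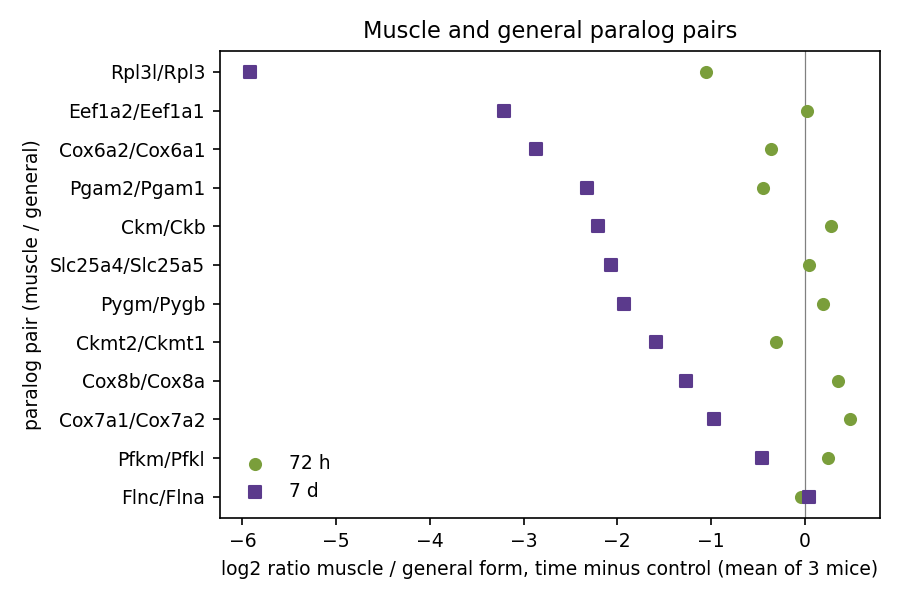
Difference from control in the log2 ratio of muscle to general form, mean of 3 mice, for 12 pairs at 72 hours (green circles) and 7 days (purple squares). Rpl3l/Rpl3 is the lowest pair at both times, at -1.06 and -5.92.

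Genes with the most similar pattern over the 15 mice were found by Pearson correlation of log2 values, as a description, since every gene is read from the same libraries as the members and the 7 day group stands apart. For Rpl3l, those named of the 5 highest among 7472 genes with a mean of at least 5 RPKM were Lrtm1 (r = 0.99, and 0.82 over the 12 mice without 7 days), Pygm (0.99 and 0.78), Acadvl (0.99 and 0.76) and Pfkm (0.99 and 0.84). Acadvl encodes a mitochondrial fatty acid dehydrogenase. The lowest were Adam8 (-0.99 and -0.74), Lox (-0.99 and -0.66), Lilr4b (-0.98 and -0.65), Col8a1 (-0.98 and -0.44) and Dab2 (-0.98 and -0.65). Lox encodes the collagen cross-linking enzyme lysyl oxidase and Col8a1 a collagen chain. Adam8, Lox and Lilr4b averaged at most 3.17 RPKM in each other group and 41.8, 92.3 and 46.1 RPKM at 7 days. They passed the filter of 5 RPKM only through that group, so their r over the 15 mice rests on it. Their r without 7 days is read from low values.

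For Rpl3 the highest were Ap2b1 (0.96 and 0.76), Mrc1 (0.96 and 0.80), Hcls1 (0.96 and 0.72), Anxa2 (0.96 and 0.70) and Hsd17b12 (0.96 and 0.76). Mrc1 encodes the macrophage mannose receptor, and averaged 3.50 to 6.25 RPKM in the other groups and 79.3 RPKM at 7 days. Hcls1 averaged 3.52 to 5.35 RPKM in the other groups and 17.4 RPKM at 7 days. Mrc1 and Hcls1 passed the filter of 5 RPKM only through the 7 day group, so their r over the 15 mice rests on it. The lowest were Tsc2 (-0.97 and -0.88), Epm2a (-0.97 and -0.81), Frmd5 (-0.97 and -0.88), Dnaja3 (-0.96 and -0.77) and R3hdm2 (-0.96 and -0.77). Tsc2 encodes tuberin, which restrains the growth kinase complex mTORC1, and stood at 35.2 RPKM in control and, from 12 hours to 7 days, at 23.0, 21.3, 26.9 and 12.4 RPKM. Celf1 had r = -0.33 with Rpl3 and 0.56 with Rpl3l over the 15 mice, and 0.68 and -0.09 without the 7 day group.

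For the log2 ratio of Rpl3l to Rpl3, Pygm (0.99 and 0.77), Lrtm1 (0.99 and 0.88), Eci1 (0.99 and 0.83) and Atp5a1 (0.99 and 0.83) were among the 5 highest. Adam8 (-0.99 and -0.77), Msr1 (-0.99 and -0.81), Itgb2 (-0.99 and -0.60) and Lyz2 (-0.99 and -0.50) were among the 5 lowest. Of these Adam8, Msr1 and Itgb2 averaged at most 2.19 RPKM in each other group and 41.8, 38.4 and 25.6 RPKM at 7 days. They passed the filter of 5 RPKM only through the 7 day group, on which their r over the 15 mice rests. The highest include genes of muscle and mitochondrial energy supply, and the lowest phagocyte genes, such as Lyz2, lysozyme, which averaged 55.7 RPKM in control and 813 RPKM at 7 days.

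Neighbouring genes were compared within 50 kb on mm9. Of the neighbours of Rpl3 both were tested and both were called lower at 7 days, Syngr1 at -1.32 ± 0.20 and Tab1 at -0.82 ± 0.22, while Rpl3 was higher. Rpl3l has 10 coding neighbours, of which 6 were tested, and at 7 days 2 were called lower and 0 higher, beside 28.2% lower and 26.7% higher over all genes. These were Ndufb10, a complex I subunit, at -1.73 ± 0.21 (adjusted p = 3.80e-06) and Sepx1, a methionine sulfoxide reductase that starts 493 bases past the end of Rpl3l, at -1.06 ± 0.38 (adjusted p = 0.027). Rps2, another ribosomal protein gene 5900 bases upstream of Rpl3l, was at -0.33 ± 0.25 and was not called (adjusted p = 0.27). No neighbour of Rpl3l came near its difference of -4.32.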

How the data were processed

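Polyadenylated RNA of the ventricles of 15 mice was sequenced. The authors deposited 1 table of RPKM values, with 16042 genes and 20 columns. TopHat, Bowtie and mm9 are named per the submitters' processing notes. For the versions, the counting tool, strand and the treatment of reads with several matches: not given in the sources used here. Of the mice, 5 with 2 columns had them averaged. Depth was estimated from value steps of 90 olfactory receptor genes (on simulated columns 56 of 60 estimates lay within 5%).

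Genes were matched by Entrez number to current symbols (15988 of 16042). On the log2(RPKM + 1) scale, the 10868 genes whose RPKM averaged at least 1 entered 1 limma fit (version 3.58.1 in R 4.3.3, eBayes with trend) of the 15 mice in 5 groups. It had 10 residual and 7.12 prior degrees of freedom. P-values were Benjamini-Hochberg adjusted within a comparison, at a threshold of 0.05. The fit was tested on simulated data. Errors written ± beside log2 differences are standard errors from this fit. The adjusted p-values printed come from it. Because it pools the spread of all groups, it assumes like spread in each.

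The members, gene lists and pairs were chosen with earlier results of these data known. Rpl3 and Rpl3l were given no test. Genes named from a list are up to 4 per time with the smallest p among those called whose 3 values did not overlap control. For likeness the 5 highest and 5 lowest correlations were named, and all neighbours within 50 kb were considered. Some genes that these rules name are not reported here. Coordinates, transcript lengths and GC content come from GENCODE vM1 on the mm9 assembly, and other copies were found with minimap2 2.31. Alternatives changed the pseudocount, filter, scaling, GC correction, column code and single libraries.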

Additional observations from a re-analysis of the deposited data

Results flagged for a closer look

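In 3 gene lists every mouse of an earlier time lay on the other side of control from every mouse of a later time, by the median log2 level of the list. The difference was not tested in any of them, and the comparisons share the 3 controls. The median level of the 60S ribosomal protein genes was -0.33 at 24 hours and 0.35 at 7 days relative to the control mean, a difference of 0.68. For the 40S genes it was -0.24 and 0.41, a difference of 0.66. For the 60S assembly and ribosome production genes it was -0.33 at 12 hours and 0.21 at 72 hours, a difference of 0.54. These values depend on the library scale. With median scaling the median difference of the list's genes from control was 0.08 at 12 hours for the assembly genes, so they no longer lay below control, against -0.25 as deposited. At 24 hours it was -0.09 against -0.30 for the 60S genes and -0.07 against -0.28 for the 40S genes. Groups of 3 mice were not searched for single outlying mice.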

How the results depend on the processing

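The log2 ratio of Rpl3l to Rpl3 was below control at every time under every alternative run. With the column code as a term it was -0.66 after 12 hours. For 72 hours it was -1.17 with that term. Columns with the code of the controls, which no other time has, gave the same value. At 72 hours these settings are the same estimate, A3278 against the controls, for the ratio and for the levels below. Leaving out 1 mouse gave -0.56 to -0.41, -0.64 to -0.42, -1.10 to -1.0 and -6.09 to -5.79 from 12 hours to 7 days.

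The levels moved more. Rpl3 was 0.36 (median scaling), 0.36 (GC) and 0.43 (code) at 12 hours, 0.54 (median scaling), 0.60 (GC) and 0.64 (relative to other ribosomal protein genes) at 24 hours, 0.68 (code, and columns with the controls' code) at 72 hours, and 1.79 (GC), 2.23 (code) and 1.22 (relative to other ribosomal protein genes) at 7 days. Rpl3l was -0.11, 0.0037 and -0.23 under median scaling, GC and code at 12 hours, -0.0071 and 0.18 under median scaling and GC at 24 hours, -0.49 with the code or the controls' code at 72 hours, and -3.99 and -3.85 under GC and code at 7 days. Relative to the cardiomyocyte markers, a setting chosen after seeing the data and with nothing added to the RPKM, it was -0.18, 0.11, -0.25 and -2.55. Leaving out 1 mouse gave Rpl3 -0.12 to 0.12, 0.27 to 0.44, 0.045 to 0.38 and 1.49 to 1.68, and Rpl3l -0.54 to -0.34, -0.31 to -0.13, -0.96 to -0.69 and -4.47 to -4.10.

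Genes called were 880 (no filter), 229 (median scaling), 189 (GC) and 9 (code) in place of 1432 at 12 hours, 1056 (no filter) and 1030 (GC) in place of 1736 at 24 hours, and with the code 376 in place of 1262 at 72 hours and 3171 in place of 5960 at 7 days. Leaving out 1 mouse gave 137 to 1395, 39 to 1836, 478 to 2490 and 4962 to 5567. Ribosomal protein genes called were 4, 2 and 0 (median scaling, GC, code) at 12 hours, 1 (no filter) at 24 hours, 1 and 1 (median scaling, GC) at 72 hours, and 31, 41 and 50 (median scaling, GC, code) at 7 days, and 0 to 1, 0 to 17, 0 to 2 and 13 to 22 without 1 mouse. Assembly genes called were 0 (no filter), 5 (mean of at least 5 RPKM), 1 (median scaling), 0 (GC) and 0 (code) at 12 hours, 5 (no filter) and 5 (GC) at 24 hours, and 10 (code) at 7 days, and 0 to 3, 0 to 6, 4 to 8 and 15 to 18 without 1 mouse. With the code as a term, fewer columns enter, the 24 hour group cannot be fitted, and 1 mouse (A3278) links control to the other times. The cause of the other shifts was not tested.

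With the code as a term Ckb was 0.17 at 7 days and Cox8a 0.29 at 12 hours and 0.14 at 7 days, and with the GC correction Eef1a2 was 0.054 at 12 hours and 0.45 at 24 hours, each opposite in sign to the value as reported. Of the 38 named calls at 7 days 23 held in every alternative run, against 1 of 9, 1 of 12 and 4 of 10 from 12 to 72 hours. No paired analysis was possible because mice are numbered singly and no number is shared between groups. Counting error of Rpl3l was largest at 7 days, and copies of Rpl3 limit its level at every time.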
